A study of Mus musculus with 19 samples.

Results

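The 10 genes described here are genes of antigen presentation by MHC class II together with its transactivator. They are *Ciita*, *H2-Aa*, *H2-Ab1*, *H2-Eb1*, *Cd74*, *H2-DMa*, *H2-DMb1*, *H2-DMb2*, *Rfx5* and *Ctss*, taken by symbol from a GENCODE mouse annotation and matched to the Ensembl identifiers of the count table. All 10 were among the 56980 genes of the table, and all 10 were among the 18739 genes with enough counts to be tested. CD11b+ cells, the fraction of the brain that holds microglia and other myeloid cells, were magnetically enriched from the brains of male mice aged 3 to 4 months, after the olfactory bulb and cerebellum had been removed. The mice were *PARK7*/DJ-1 KO animals, which carry the gene trap Gt(XE726)Byg in *Park7* in every cell of the body on a C57BL/6NCrl background, and their wildtype (WT) littermates. Each genotype received an intraperitoneal injection of LPS, the bacterial endotoxin, at 4 μg/g body weight, or of the PBS vehicle, and the brain was taken after 6 h. There were 5 KO and 5 WT mice after LPS and 5 KO and 4 WT mice after PBS, 1 library of total RNA per mouse.

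MHC class II molecules are heterodimers of an alpha and a beta chain that carry peptides from the endosomes of professional antigen-presenting cells to the surface, where CD4+ T cells read them. In the C57BL/6 mouse the molecule is I-A, made of the products of *H2-Aa* and *H2-Ab1*, while *H2-Eb1* encodes the beta chain of I-E. New chains are held by the invariant chain, the product of *Cd74*, which blocks the peptide groove until the protease cathepsin S, the product of *Ctss*, has trimmed it. The H2-DM heterodimer, made of *H2-DMa* with *H2-DMb1* or *H2-DMb2*, then exchanges the remaining fragment for a peptide. The chain, invariant chain and H2-DM genes are transcribed from promoters with X and Y boxes. An enhanceosome of RFX (with *Rfx5* as its DNA-binding subunit), NF-Y and CREB forms on these boxes. CIITA, the product of *Ciita*, is recruited to it as the coactivator. CIITA itself is induced by interferon-gamma, with IRF1 among the factors that act on its gene. Resting microglia are known for low levels of class II, while macrophages at the borders of the brain hold more.

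The X and Y boxes were looked for in promoter sequences, which came from RefSeq on build GRCm38.p6 and had an entry for 7 of the 10 genes. No entry was found for *Ciita*, *H2-Ab1* and *Cd74*. The 150 bases before the annotated start are shown 5′ to 3′ on the strand of the gene for 4 class II genes that fell after LPS and, for contrast, for *Ctss*, whose level passed no test. Capitals mark AAC, any 2 bases and ATGATG (the letters of the X box), ATTGG or its reverse complement CCAAT (the Y box), TGACG on either strand (the core of a CREB site) or GAAA, any 2 bases and GAAA (the core that interferon regulatory factors bind).
*H2-Aa*, chr17:34287824-34287973, minus strand: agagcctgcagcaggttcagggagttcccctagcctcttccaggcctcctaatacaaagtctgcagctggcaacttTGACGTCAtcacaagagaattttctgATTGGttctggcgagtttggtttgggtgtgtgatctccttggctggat
*H2-Eb1*, chr17:34305717-34305866, plus strand: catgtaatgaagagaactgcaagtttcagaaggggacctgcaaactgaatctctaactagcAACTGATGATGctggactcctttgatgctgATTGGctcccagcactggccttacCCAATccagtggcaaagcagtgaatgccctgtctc
*H2-DMb1*, chr17:34153041-34153190, plus strand: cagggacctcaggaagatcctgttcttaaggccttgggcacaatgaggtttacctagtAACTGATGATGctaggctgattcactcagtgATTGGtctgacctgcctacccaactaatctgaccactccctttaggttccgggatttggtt
*H2-DMb2*, chr17:34145099-34145248, plus strand: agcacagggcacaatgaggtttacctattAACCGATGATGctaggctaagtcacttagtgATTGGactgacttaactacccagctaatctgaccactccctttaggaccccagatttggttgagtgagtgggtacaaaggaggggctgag
*Ctss*, chr3:95526636-95526785, plus strand: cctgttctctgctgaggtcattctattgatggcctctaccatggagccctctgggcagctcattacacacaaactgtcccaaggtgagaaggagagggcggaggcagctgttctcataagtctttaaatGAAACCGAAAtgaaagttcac

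The X box letters lay 89 to 79 bases before the start of *H2-Eb1*, 92 to 82 before that of *H2-DMb1* and 121 to 111 before that of *H2-DMb2*, each with ATTGG downstream of it. *H2-Aa* held ATTGG 48 to 44 bases before its start, and TGACG on both strands, overlapping, between 74 and 67 bases before it, and did not hold the X box letters. *Ctss* held neither the X box letters nor ATTGG. *Rfx5* held ATTGG on the other strand at 2 places and *H2-DMa* held it 198 to 194 bases before its start, and neither held the X box letters. *H2-Ob*, a subunit of a modulator of H2-DM and not one of the 10 genes, held both boxes as well. On either strand, the X box letters were found in 45 of 32851 promoter windows of 300 bases (0.137%), ATTGG in 37.4%, TGACG in 20.8% and the interferon regulatory factor core in 3.44%. Both the X box letters and ATTGG were found in 19 windows (0.0578%), among which were *H2-Eb1*, *H2-DMb1*, *H2-DMb2* and *H2-Ob*. These letters were chosen after the sequences had been read, and a match is a description of the sequence, not a measured binding site.

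The deposited values are raw read counts per gene. Totals ranged from 11936364 to 22788884 counts per library with a median of 17211939, so that 3 counts, taken as the floor of detection, correspond to 0.139 to 0.256 CPM, that is, counts scaled to a fixed library total. Levels are given as CPM after TMM normalization, and levels of different genes are compared only as CPM per kb of annotated exon. *Park7* stood at 20.6 to 32.1 CPM in the 9 WT libraries and at 0.457 to 5.38 CPM in the 10 KO libraries, as the genotype labels say. The libraries of a group were alike over the 2000 most variable genes, with Spearman correlations of 0.879 to 0.972 between libraries, except for KO LPS replicate 5, whose correlations with the other KO LPS libraries were 0.715 to 0.852. Summed levels of 8 microglial markers were 17300 to 28100 CPM after PBS and 5610 to 10200 CPM after LPS, so the cells carried the markers of their label in every library, at a lower level after LPS. Markers of other brain cells (7 genes) summed to 162 to 2320 CPM and T and NK cell markers to 0.0722 to 2.54 CPM.

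Baseline levels were taken from the 4 WT PBS libraries, where *Ctss* was the most abundant of the 10 genes by a wide margin. Per kb of exon, *Ctss* stood at 644 ± 194 CPM (SD, n = 4), *Cd74* at 85.4 ± 5.93, *H2-Eb1* at 42.4 ± 2.67 and *H2-Ab1* at 33.8 ± 2.75, and these 4 did not overlap with each other. The next 3 genes, *H2-DMb1* at 25.7 ± 4.27, *H2-DMa* at 22.3 ± 5.65 and *H2-Aa* at 20.1 ± 2.53 CPM per kb, overlapped with each other, so these libraries gave them no order. *Rfx5* followed at 7.81 ± 0.781, *H2-DMb2* at 3.86 ± 0.493 and *Ciita* last at 0.597 ± 0.0861 CPM per kb, with no overlap between them. *Ciita* rested on 92 to 125 counts per library in this group and *Ctss* on 40612 to 87036. The exon length counts every annotated transcript, so an isoform that is annotated but not used lowers the level per kb.

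**Figure D1:**
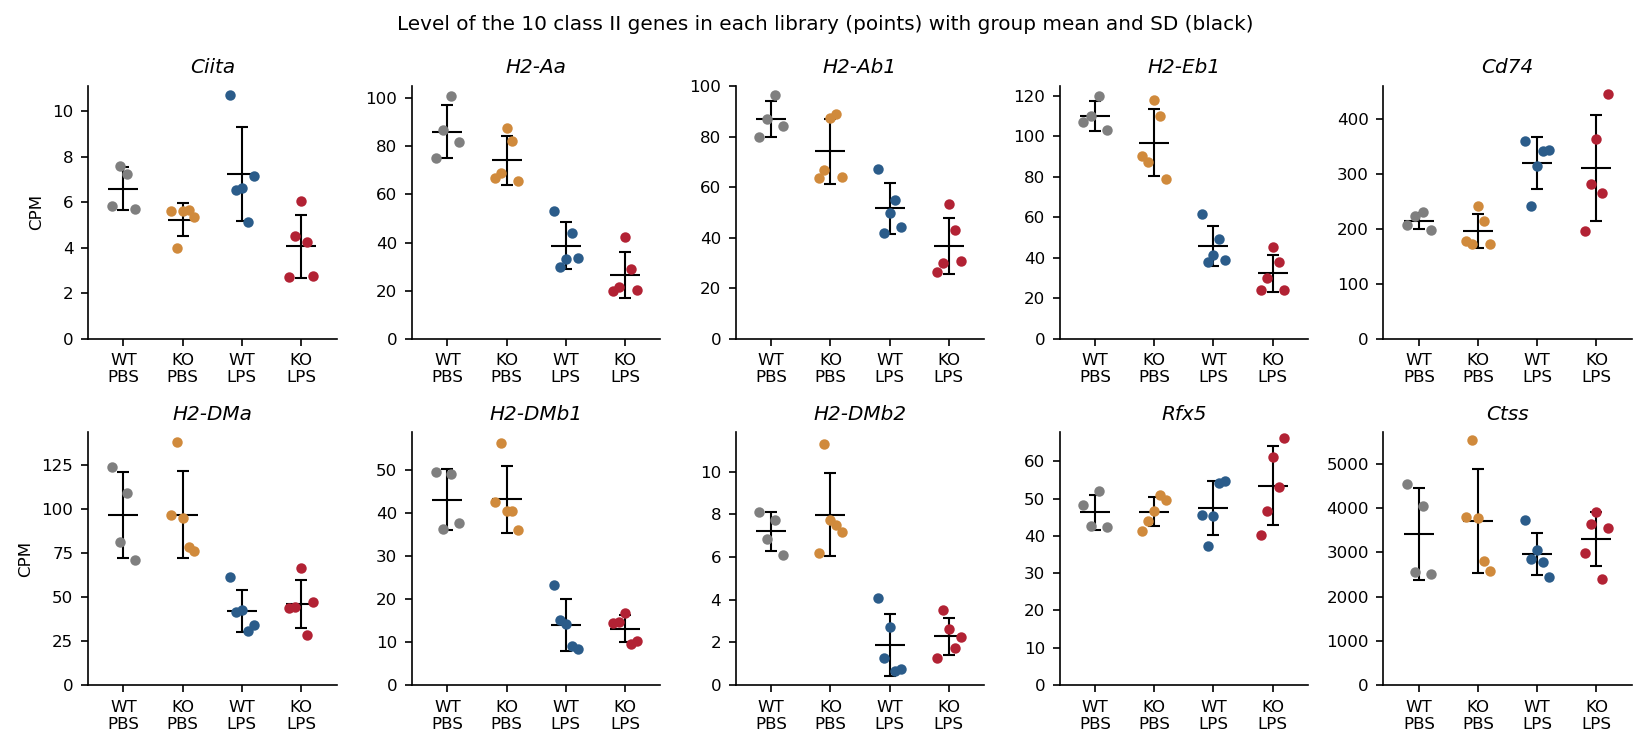
Level of each of the 10 genes as CPM (vertical axis, from 0) in the 4 groups of mice, with 1 point per library, the group mean as a black line and its SD as error bars (n = 4 for WT PBS, n = 5 for the others). The chain and H2-DM genes sit lower after LPS in both genotypes, *Cd74* sits higher, and *Ciita* has its lowest mean, 4.05 CPM, in KO mice after LPS.

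The first comparison asked how LPS changed the class II genes in WT cells. The genes of the chains and of the peptide exchange factor fell, from 1.69-fold for *H2-Ab1* to 3.77-fold for *H2-DMb2*, while *Cd74* rose 1.49-fold. *Ciita*, *Rfx5* and *Ctss* did not pass the test. In all, 6 of the 10 genes were lower and 1 was higher at an adjusted p under 0.05 with a log2 fold change (log2FC) of at least 0.5 in size, the thresholds the study used for LPS. The background is wide: 17.4% of all genes tested were lower and 18.4% were higher by the same rule. The median log2FC of the 10 genes was -0.95, and that of all genes tested was -0.06.

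*H2-Aa* (chr17:34493404-34506798, minus strand, GRCm39), the alpha chain of I-A, stood at 75.3, 86.7, 101 and 81.7 CPM in the WT PBS libraries. After LPS the WT libraries held 53.0, 29.6, 33.1, 44.1 and 33.7 CPM. The highest LPS library was below the lowest PBS library, so the groups did not overlap. The fall was -1.15 ± 0.209 on the log2 scale (SE; adjusted p = 0.000182 by the Benjamini-Hochberg method, from the quasi-likelihood test of edgeR). *H2-Ab1* (chr17:34476663-34488393, plus strand), its beta chain, fell less, from 79.8, 87.0, 96.5 and 84.2 CPM to 67.2, 41.7, 49.9, 54.8 and 44.0 CPM. These groups did not overlap either, and the log2FC was -0.75 ± 0.187 (adjusted p = 0.003, edgeR). *H2-Eb1* (chr17:34504236-34535648, plus strand) went from 107, 110, 120 and 103 CPM to 61.5, 38.0, 41.3, 49.2 and 38.6 CPM. Its log2FC was -1.27 ± 0.185 (adjusted p = 1.86e-05, edgeR), with no overlap. WT LPS replicate 1 was the highest of the 5 LPS libraries for all 3 chains.

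The genes of the H2-DM heterodimer fell as well. *H2-DMa* (chr17:34338515-34358958, plus strand) stood at 124, 81.3, 109 and 71.2 CPM after PBS and at 61.4, 41.6, 42.6, 30.9 and 34.1 CPM after LPS, a log2FC of -1.19 ± 0.239 (adjusted p = 0.000477, edgeR). *H2-DMb1* (chr17:34372046-34379204, plus strand) fell from 49.6, 36.3, 49.0 and 37.6 CPM to 23.3, 15.1, 14.2, 9.04 and 8.27 CPM, a log2FC of -1.62 ± 0.249 (adjusted p = 3.18e-05, edgeR). *H2-DMb2* (chr17:34362197-34370529, plus strand) fell from 8.13, 6.85, 7.75 and 6.09 CPM to 4.06, 1.25, 2.71, 0.650 and 0.767 CPM, a log2FC of -1.91 ± 0.415 (adjusted p = 0.000973, edgeR). None of the 3 groups of LPS libraries overlapped with PBS. *H2-DMb1* and *H2-DMb2* are neighbouring, closely related genes, so that reads could be shared between them in the counting, and *H2-DMb2* rested on only 9 to 68 counts per library after LPS.

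*Cd74* (chr18:60936899-60945731, plus strand) went the other way. It stood at 207, 224, 230 and 198 CPM after PBS and at 360, 241, 315, 342 and 343 CPM after LPS. Every LPS library was above every PBS library. The rise was 0.58 ± 0.185 on the log2 scale (adjusted p = 0.0171, edgeR). The invariant chain gene thus moved against the chains that its product binds. Of the other 3 genes, *Ciita* (chr16:10297923-10347694, plus strand) held 5.84, 7.58, 7.23 and 5.71 CPM after PBS and 10.7, 6.51, 6.62, 5.14 and 7.16 CPM after LPS. These groups overlapped (log2FC 0.14 ± 0.247, adjusted p = 0.705, edgeR), and without WT LPS replicate 1, the library at 10.7 CPM, the value was -0.05. *Rfx5* (chr3:94861381-94869225, plus strand) ranged from 42.5 to 52.0 CPM after PBS and from 37.4 to 54.7 CPM after LPS (log2FC 0.03 ± 0.14, a value that turned to as low as -0.03 under other filters). *Ctss* (chr3:95433963-95463717, plus strand) ranged from 2520 to 4540 CPM and from 2450 to 3720 CPM (log2FC -0.20 ± 0.237). In all, 7 of the 10 genes did not overlap between LPS and PBS in WT mice, where 37.8% of all genes did not.

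The KO mice gave the same question a second set of libraries. The same 6 genes were lower and *Cd74* was higher after LPS by the same rule, where 19% of all genes were lower and 20.1% higher, and the median log2FC was -1.04 against -0.01 for all genes. *H2-Eb1* stood at 90.4, 87.2, 118, 110 and 78.7 CPM after PBS and at 24.1, 29.9, 45.3, 38.0 and 23.8 CPM after LPS. Its fall of 3-fold, a log2FC of -1.58 ± 0.179 (adjusted p = 7.16e-07, edgeR), left no overlap. *H2-Aa* stood at 66.8, 68.8, 87.5, 82.4 and 65.5 CPM after PBS and at 19.8, 21.6, 42.4, 29.1 and 20.1 CPM after LPS (log2FC -1.48 ± 0.202, adjusted p = 6.89e-06, edgeR). *H2-Ab1* stood at 63.7, 66.7, 87.4, 89.1 and 64.1 CPM after PBS and at 26.3, 29.8, 53.2, 43.1 and 30.9 CPM after LPS (log2FC -1.02 ± 0.179, adjusted p = 0.000115, edgeR). Again no LPS library of either gene reached the PBS range.

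*H2-DMb1* in KO mice ranged from 36.1 to 56.3 CPM after PBS and from 9.56 to 16.7 CPM after LPS (log2FC -1.71 ± 0.24, adjusted p = 9.19e-06, edgeR). *H2-DMb2* ranged from 6.20 to 11.3 CPM and from 1.29 to 3.54 CPM (log2FC -1.80 ± 0.395). *H2-DMa* ranged from 76.2 to 138 CPM and from 28.7 to 66.5 CPM (log2FC -1.07 ± 0.228). No overlap was left for any of these genes, and with the 3 chains they made up the 6 of 10 that did not overlap in KO mice, against 32.8% of all genes. *Cd74* stood at 178, 173, 241, 215 and 173 CPM after PBS and at 196, 281, 364, 265 and 446 CPM after LPS. These groups overlapped in KO replicate 1 after LPS, at 196 CPM, although the rise of 0.66 ± 0.174 passed the test (adjusted p = 0.00396, edgeR). Without KO LPS replicate 5, the library at 446 CPM, it was 0.50 after rounding and fell just short of the fold threshold. *Ciita* in KO mice held 5.59, 3.97, 5.59, 5.66 and 5.35 CPM after PBS and 2.7, 4.52, 6.04, 4.25 and 2.74 CPM after LPS. The groups overlapped, and the log2FC of -0.37 ± 0.235 did not pass (adjusted p = 0.221, edgeR). *Rfx5* (log2FC 0.20 ± 0.132) and *Ctss* (log2FC -0.17 ± 0.224) did not pass either.

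**Figure D2:**
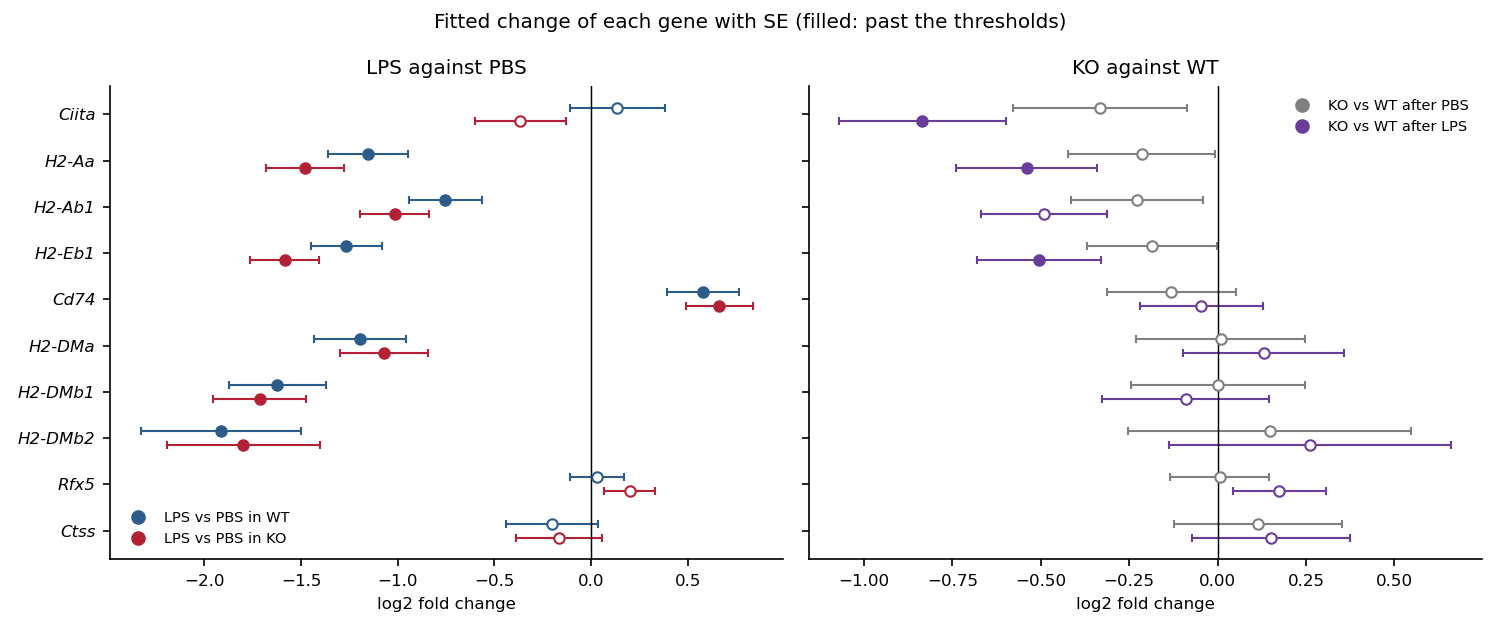
Fitted log2 fold change of each of the 10 genes (horizontal axis) with its SE, for LPS against PBS in WT and KO mice (left) and for KO against WT after PBS and after LPS (right), where filled points are past the thresholds named in the text. On the left 6 genes below 0 and *Cd74* above it are filled in both genotypes. On the right *Ciita*, *H2-Aa* and *H2-Eb1* after LPS are filled, at -0.83, -0.54 and -0.505.

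The opposite moves of *Cd74* and the chains changed their proportions. In the 4 WT PBS libraries, *Cd74* per kb of exon was 4.28 ± 0.348 times *H2-Aa* (SD, n = 4), and in the 5 KO PBS libraries it was 4.5 ± 0.147 times *H2-Aa*. After LPS the ratio was 11.6, 13.9, 16.3, 13.2 and 17.4 in the WT libraries and 16.9, 22.2, 14.6, 15.5 and 37.8 in the KO libraries. All 10 libraries after LPS were above all 9 after PBS, whose highest ratio was 4.70. The ratio to *H2-Ab1* went from 2.53 ± 0.131 to 6.43 ± 0.947 in WT mice and from 2.71 ± 0.158 to 9.05 ± 3.41 in KO mice, and the ratio to *H2-Eb1* from 2.01 ± 0.0647 to 7.36 ± 1.23 and from 2.10 ± 0.103 to 10.6 ± 4.96. KO LPS replicate 5 held the highest ratio to each of the 3 chains. The range of the KO libraries after LPS overlapped with that of the WT libraries for all 3.

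**Figure D3:**
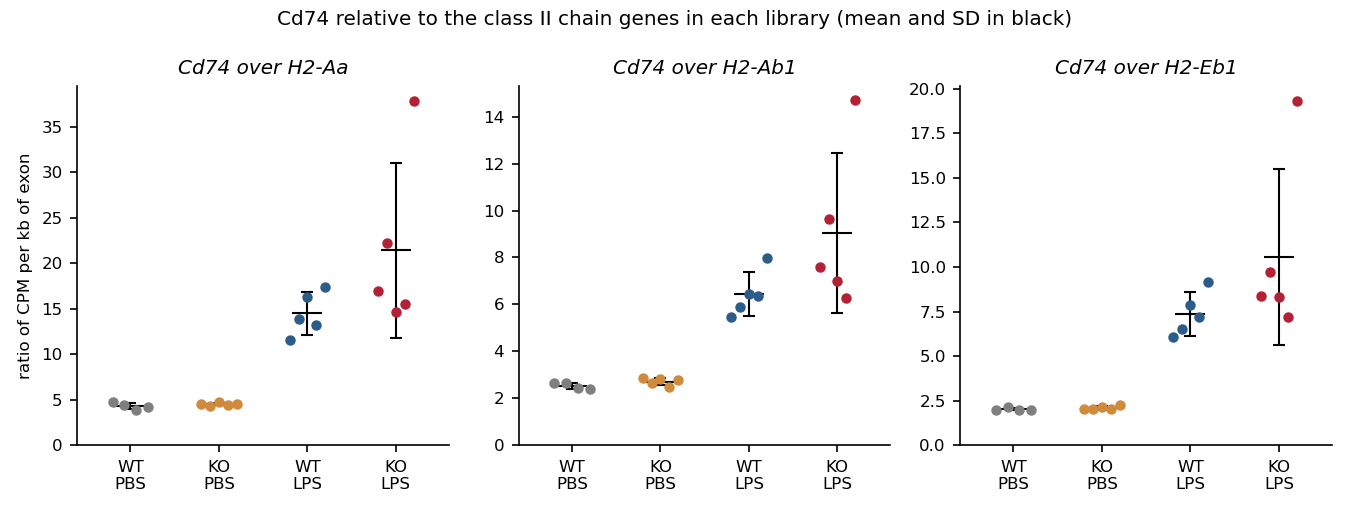
Ratio of *Cd74* to *H2-Aa*, *H2-Ab1* and *H2-Eb1*, each as CPM per kb of exon (vertical axis, from 0), in the 4 groups, with 1 point per library, group means as black lines and SDs as error bars. Every library after LPS lies above every library after PBS, and the highest point for *H2-Aa* is KO LPS replicate 5 at 37.8.

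Markers of other cells that carry class II moved with LPS as well. The 8 markers of border-associated macrophages summed to 2120 to 2610 CPM after PBS and to 1150 to 2550 CPM after LPS. *Stab1* made up most of these sums, with group means of 1830 (WT) and 1760 CPM (KO) after PBS and 1230 and 1140 CPM after LPS. Of the 8 markers, 5 were lower in each genotype, with *Ms4a7* at a log2FC of -1.63 in WT and -1.59 in KO mice. The highest LPS sum, 2550 CPM, was that of WT LPS replicate 1, and the other LPS libraries held 1150 to 1810 CPM. B cell markers (6 genes) summed to 162 to 327 CPM after PBS and to 19.3 to 39.0 CPM after LPS, nearly all of it *Ighm*. *Cd79b*, part of the B cell receptor, fell from 9.27 to 2.03 CPM in WT and from 9.59 to 1.51 CPM in KO mice (group means), *Cd79a* held at most 14 counts, *Ms4a1* at most 5 and *Pax5* at most 9 in any library. Dendritic cell markers (6 genes) summed to 27.9 to 41.5 CPM after PBS and to 37.3 to 224 CPM after LPS. Within this list *Ccr7*, which activated myeloid cells also make, rose with a log2FC of 7.09 in WT and 7.07 in KO mice, while *Flt3* fell (-1.43 and -1.24) on 6 to 44 counts per library. *Cd209a* fell in WT mice (-1.19) and did not pass in KO mice (-0.61), and *Zbtb46*, on 115 to 358 counts, did not pass in either (-0.02 and 0.58). *Xcr1* and *Clec9a* held at most 9 and 13 counts in any library. Monocyte and neutrophil markers (6 genes) summed to 24.4 to 97.3 CPM after PBS and to 117 to 416 CPM after LPS. In RNA from a mixed cell fraction, fewer cells of a type and less RNA per cell cannot be told apart, and the part of these cells in the changes of the class II genes was not tested.

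The pathway around the 10 genes was described with lists of its other genes. Among other class II genes, *H2-Ob*, the beta chain of the H2-DO modulator, fell from 33.7 ± 8.18 to 10.3 ± 1.56 CPM (SD) in WT mice and from 32.5 ± 5.39 to 13.3 ± 4.18 CPM in KO mice. Its log2FC of -1.71 and -1.29 passed the test (adjusted p = 2.89e-06 and 3.18e-05, edgeR), and *H2-Oa*, its partner, did not (-0.43 and -0.37). *H2-Ea*, whose promoter is deleted in C57BL/6 mice, and *H2-Eb2* held at most 3 and 5 counts in any library and were not tested. Of the 6 enhanceosome genes, 1 rose in each genotype, *Nfyb*, a subunit of NF-Y (0.77 and 1.16), and none fell past the threshold. Of the 6 genes of antigen processing, 3 rose and 2 fell in WT mice and 4 rose and 2 fell in KO mice. In WT mice the largest fall was that of the protease *Ctsd* (-1.09 in WT, -0.97 in KO), the largest rise that of the protease *Ctsl* (0.81 and 0.89) and the smallest called change that of *Sppl2a*, the protease that removes the stub of the invariant chain (0.56 and 0.52).

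Genes that act upstream of *Ciita* rose in part, while *Ciita* itself did not pass the test. Of the 11 tested genes of *Ciita* regulation, 6 rose and 1 fell in each genotype, with a median log2FC of 0.97 in both. *Spi1*, the myeloid factor PU.1, was among those that rose (1.03 and 0.97). The list also holds inhibitors. Group means of *Socs1*, a feedback inhibitor, went from 7.85 to 21.9 CPM in WT and from 6.22 to 16.2 CPM in KO mice. Those of the repressor *Prdm1* went from 42.5 to 33 CPM and from 45.6 to 47.4 CPM. *Irf1*, which acts on the interferon-responsive promoter of *Ciita*, went from 72.5 ± 12.2 to 253 ± 91.2 CPM (SD) in WT mice, a log2FC of 1.81 ± 0.239 (adjusted p = 5.95e-06, edgeR), and from 70.7 ± 8.28 to 193 ± 50.9 CPM in KO mice (1.45 ± 0.219). *Usf1*, which acts on the same promoter, was the only one that fell, from 67.3 ± 9.45 to 35.6 ± 5.25 CPM in WT mice (-0.92) and by -1.04 in KO mice. *Ifng*, the gene of interferon-gamma itself, was too low to be tested. It held 0, 0, 2 and 1 counts in the WT PBS libraries and 0, 0, 2, 0 and 0 in the KO PBS libraries. After LPS it held 10, 1, 19, 25 and 8 counts in WT mice and 0, 1, 1, 5 and 0 in KO mice. The KO LPS libraries were thus under the floor of 3 counts in 4 of 5 mice, and 4 of the 5 WT LPS libraries were above their highest count of 5.

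Genes of co-stimulation and of class II turnover rose. *Cd40*, the co-stimulatory receptor that T cells engage, went from 1.48 ± 0.444 to 44.4 ± 27.2 CPM (SD) in WT mice, a log2FC of 4.90 ± 0.512 (adjusted p = 3.61e-07, edgeR), and from 1.61 ± 0.372 to 46.7 ± 24.9 CPM in KO mice (4.86). *Cd86*, a ligand of CD28, rose by 0.88 in WT and 1.22 in KO mice. *Marchf1*, the ubiquitin ligase that takes class II molecules and CD86 off the surface, rose from 245 ± 36.4 to 575 ± 95.6 CPM in WT mice (1.23) and from 249 ± 42.6 to 534 ± 78.1 CPM in KO mice (1.10). With *Cd80*, 4 of 4 genes of this list were higher in each genotype, with medians of 1.25 and 1.23, while the genes of the class II chains were lower in the same libraries.

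The main comparison of the study asked what the loss of *PARK7*/DJ-1 changed after LPS. Here *Ciita* was lower in KO mice by 1.78-fold, *H2-Aa* by 1.45-fold and *H2-Eb1* by 1.42-fold, and *H2-Ab1*, at a ratio of 1.41, did not pass. *Ciita*, *H2-Aa* and *H2-Eb1* passed the rule the study used for genotype, an unadjusted p under 0.05 with a log2FC of at least 0.5 in size. That made 3 of 10 genes lower and none higher, where 0.763% of all genes tested were lower and 0.544% higher. None of the 10 had an adjusted p under 0.05 (all were at 1 in edgeR), a limit that 2 of the 18739 genes passed (0.0107%). The groups overlapped for all 10 genes, where 0.219% of all genes did not overlap. The median log2FC of the 10 genes was -0.07 and that of all genes 0.02.

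*Ciita* after LPS held 2.7, 4.52, 6.04, 4.25 and 2.74 CPM in KO mice (4.05 ± 1.39, SD, n = 5) and 10.7, 6.51, 6.62, 5.14 and 7.16 CPM in WT mice (7.23 ± 2.10, n = 5). Only KO replicate 3, at 6.04 CPM, lay inside the WT range, above WT replicate 4. The log2FC was -0.83 ± 0.235 (unadjusted p = 0.0022, edgeR). The counts behind it were 38 to 101 in KO and 79 to 180 in WT libraries. *H2-Aa* held 19.8, 21.6, 42.4, 29.1 and 20.1 CPM in KO mice (26.6 ± 9.61) and 53.0, 29.6, 33.1, 44.1 and 33.7 CPM in WT mice (38.7 ± 9.68). KO replicate 3 again stood above 3 of the 5 WT libraries, and the other 4 KO libraries were below all WT libraries. The log2FC was -0.54 ± 0.20 (unadjusted p = 0.0142, edgeR).

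*H2-Eb1* held 24.1, 29.9, 45.3, 38.0 and 23.8 CPM in KO mice and 61.5, 38.0, 41.3, 49.2 and 38.6 CPM in WT mice (log2FC -0.505 ± 0.176, unadjusted p = 0.0102, edgeR). *H2-Ab1* held 26.3, 29.8, 53.2, 43.1 and 30.9 CPM in KO mice and 67.2, 41.7, 49.9, 54.8 and 44.0 CPM in WT mice. Its log2FC of -0.49 ± 0.179 had a like p-value (unadjusted p = 0.0129, edgeR) and stood just under the limit of 0.5, as *H2-Eb1* stood just over it. The call of *H2-Eb1* was lost in 5 of 9 alternatives that left no single library out, among them DESeq2 or its size factors (-0.49) and the fit without ribosomal RNA and mitochondrial genes (-0.50 after rounding), and *H2-Ab1* passed at -0.52 with the replicate number as a block. KO replicate 3 was the highest KO library for *Ciita* and all 3 chains. The other 6 genes did not pass. *Cd74* stood at -0.05 ± 0.173, *H2-DMa* at 0.13 ± 0.227, *H2-DMb1* at -0.09 ± 0.237, *H2-DMb2* at 0.26 ± 0.40, *Rfx5* at 0.17 ± 0.132 and *Ctss* at 0.15 ± 0.224, with unadjusted p-values from 0.204 to 0.795 in edgeR. For *Cd74*, *H2-DMa* and *H2-DMb1* the sign turned when single libraries were left out. *H2-DMb2* kept its sign in those fits but ranged from 0.04 to 0.75.

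How far single mice carried these differences was checked by leaving each of the 10 LPS libraries out in turn. *Ciita* passed in 10 of 10 fits, with log2FCs from -1.02 to -0.65. *H2-Aa* passed in 5 of 10 (-0.77 to -0.40), *H2-Eb1* in 5 of 10 (-0.66 to -0.37) and *H2-Ab1* in 4 of 10 (-0.66 to -0.38). Without KO replicate 1, 2 or 5, or without WT replicate 1 or 4, *Ciita* was the only gene of the 10 that passed. A further fit left out both KO LPS replicate 5, the library least like its group, and WT LPS replicate 1. The latter had the highest macrophage marker sum of the LPS libraries. *Ciita* was then at -0.54 ± 0.223 (unadjusted p = 0.0273, edgeR) and passed. *H2-Aa* at -0.32 ± 0.20 and *H2-Eb1* at -0.28 ± 0.169 did not pass. With the 4 libraries left out whose other brain cell markers summed to over 1000 CPM, 1 per group, *Ciita* was at -0.75 and *H2-Aa* at -0.53, and both passed, while *H2-Eb1* at -0.47 did not. *Ciita* and the 3 chains had a negative log2FC in all of these fits.

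**Figure D4:**
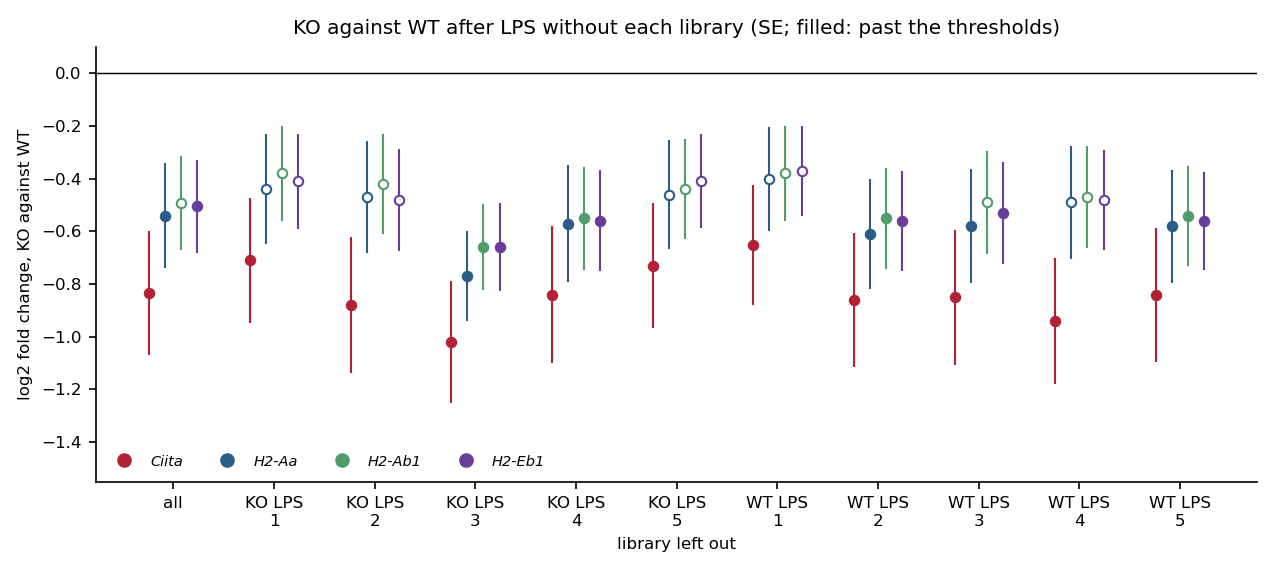
Fitted log2 fold change of KO against WT after LPS (vertical axis) with its SE for *Ciita*, *H2-Aa*, *H2-Ab1* and *H2-Eb1*, with all libraries and with each of the 10 LPS libraries left out in turn, where filled points are past the thresholds. All points lie below 0, *Ciita* is filled throughout between -1.02 and -0.65, and the 3 chains are filled in 4 or 5 of the 10 fits.

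Genes around the pathway did not pass this test for genotype after LPS. None of the 11 tested genes of *Ciita* regulation was called, with *Irf1* at -0.40 ± 0.214 (unadjusted p = 0.0807, edgeR), *Socs1* at -0.44, *Jak1* at 0.35 (unadjusted p = 0.0196, edgeR) and *Prdm1* at 0.52, and a median of -0.07. No gene of the enhanceosome, of antigen processing or of co-stimulation was called either, with *Cd40* at 0.07 and *Cd86* at 0.28. No marker of microglia, border-associated macrophages, dendritic cells, B cells or monocytes and neutrophils was called, and the macrophage sums were 1240 to 2550 CPM in WT and 1150 to 1810 CPM in KO mice. The median log2FC was 0.10 for the 8 microglial markers, -0.11 for the 8 macrophage markers, 0.32 for the 4 tested dendritic cell markers and -0.24 for the 2 tested B cell markers. All 6 monocyte and neutrophil markers had a negative log2FC, from -0.66 to -0.00 (median -0.22, against 0.02 for all genes). *Ly6c2* was at 50.8 CPM in WT and 32.1 CPM in KO mice (-0.66 ± 0.508). *Plac8* was at 80.6 and 52.4 CPM (-0.62 ± 0.301, unadjusted p = 0.0525, edgeR). *S100a8*, at 93.2 and 92.9 CPM, and *S100a9*, at 42.7 and 41 CPM, were nearly level. The part of these cells in the lower class II levels was not tested. Of the 2 tested T and NK cell genes *Ncr1*, an NK cell receptor, was lower (-1.63 ± 0.681, unadjusted p = 0.0277, edgeR). It rested on only 4 to 19 counts in WT and 0 to 11 in KO libraries, near the floor of 3 counts. *Nkg7* was not called, and the other genes of this list were too low to be tested. The sums of the T and NK cell list were 0.426 to 2.54 CPM in WT and 0.0722 to 1.40 CPM in KO mice. Those cells are a source of interferon-gamma, and their part in the levels of *Ifng* or *Ciita* was not tested.

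After PBS none of the 10 genes passed, where 0.576% of all genes were lower and 0.224% higher by the rule. *Ciita* held 5.59, 3.97, 5.59, 5.66 and 5.35 CPM in KO mice and 5.84, 7.58, 7.23 and 5.71 CPM in WT mice. Its groups did not overlap, the only such gene of the 10, where 0.971% of all genes did not overlap. The gap between the highest KO library, 5.66 CPM, and the lowest WT library, 5.71 CPM, was smaller than the spread within either group, and the log2FC was -0.33 ± 0.246 (unadjusted p = 0.192, edgeR). *H2-Ab1* was at -0.23 ± 0.187, *H2-Aa* at -0.22 ± 0.208, *H2-Eb1* at -0.19 ± 0.184 and *Cd74* at -0.13 ± 0.183. The H2-DM genes, *Rfx5* and *Ctss* lay between 0.00 and 0.15, and the signs of *H2-DMa*, *H2-DMb1*, *H2-DMb2*, *Rfx5* and *Ctss* turned when libraries were left out or other settings were used.

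Whether LPS acted differently in the 2 genotypes was tested with the interaction. None of the 10 genes passed the test at an adjusted p under 0.05 in edgeR or at an unadjusted p under 0.05, where 0% of all genes passed the first limit and 0.961% the second. The differences of the LPS effect, KO minus WT, were -0.50 ± 0.34 for *Ciita* (unadjusted p = 0.157, edgeR), -0.32 ± 0.289 for *H2-Aa*, -0.32 ± 0.256 for *H2-Eb1*, -0.26 ± 0.259 for *H2-Ab1* and 0.09 ± 0.252 for *Cd74*. With single libraries left out, *Ciita* ranged from -0.69 to -0.31 and *H2-Aa* from -0.56 to -0.18. Without both KO LPS replicate 5 and WT LPS replicate 1, *Ciita* was at -0.20 and *H2-Aa* at -0.10. The genotype difference after LPS was therefore not shown to differ from that after PBS. The comparisons share groups of mice, so that a library such as a low KO library after LPS enters several of them.

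How the 10 genes varied between mice of the same group was described by the correlation of their log2 CPM deviations from the group means over the 19 libraries. The 3 chain genes moved almost as one, with r = 0.96 between *H2-Aa* and *H2-Ab1* and 0.95 between *H2-Eb1* and either of them. *Ciita* followed them less closely (0.68 with *H2-Aa*, 0.66 with *H2-Ab1* and 0.73 with *H2-Eb1*) and hardly followed *Cd74* (0.28). The H2-DM genes formed a second set, with 0.84 between *H2-DMa* and *H2-DMb1*, 0.77 between *H2-DMb1* and *H2-DMb2* and 0.65 between *H2-DMa* and *H2-DMb2*. This set stood at 0.90, 0.70 and 0.55 with *Ctss*, for *H2-DMa*, *H2-DMb1* and *H2-DMb2* in turn, and at 0.18 to 0.32 with the chains. *Cd74* was closest to *Rfx5* (0.80) and stood at 0.40 to 0.54 with the chains. Deviations of a library share its depth and its mix of cells, and no test was made of these values.

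Among all 18739 genes tested, the deviations of the mean of *H2-Aa*, *H2-Ab1*, *H2-Eb1* and *Cd74* were most like those of *Nup93* (r = 0.88), *Rnf169* (0.87), *Ifi207* (0.85), *Tgfbi* (0.84), *Ccl24* (0.83), *Plbd1* (0.82), *Clec12a* (0.82), *Gm5431* (0.81), *Ifi204* (0.81) and *Inpp5k* (0.81), leaving out the 4 genes themselves. *Ifi207* and *Ifi204* are interferon-inducible genes of 1 family, and *Clec12a* and *Ccl24* are a myeloid lectin and a chemokine. *Cd74* ranked 151 against the mean that it was part of, behind the 3 chains at ranks 1 to 3, and *Ciita* ranked 171 (0.67). The genes most like *Ciita* were *Gm53618* (0.84), *Usf3* (0.84), *Gm44104* (0.84), *Zfp641* (0.80) and an unnamed gene, ENSMUSG00000102142 (0.79), and *H2-Eb1* was the closest of the other 9 genes at rank 16. All these values rest on 19 libraries and are descriptions.

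Some of the counts could hold reads of a neighbour. The libraries were stranded, but whether the counting used the strand is not given in the sources used here. Exons of *Ciita* share 633 bases with *Dexi* on the opposite strand (5.73% of its exon bases), those of *H2-DMa* 510 bases with *Brd2* (11.8%), those of *Rfx5* 1857 bases with *B230398E01Rik* (31.3%), and those of *H2-Aa* and *H2-Eb1* 118 bases with each other. *Dexi* held 3498 counts over all libraries against 1827 of *Ciita*. *Brd2* held 145710 counts over all libraries against 22960 of *H2-DMa*, and *B230398E01Rik* held 137 against 15529 of *Rfx5*. Without strand, reads on these bases cannot be told apart.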

How the data were processed

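The deposited table held 19 libraries of stranded total RNA from ribosome-depleted samples. The authors trimmed paired reads with Cutadapt (0.17.4 in the submitters' processing notes) and mapped and counted them with STAR 2.7.9a on GRCm39, and deposited raw counts without normalization. The annotation was Ensembl's. Of 56980 Ensembl identifiers, 56236 were named by GENCODE. Genes with low counts were removed (edgeR's filterByExpr, minimum count 10, minimum total 15), leaving 18739, and all were fitted together by group with TMM normalization and edgeR 4.0.16's quasi-likelihood test (R 4.3.3) with Benjamini-Hochberg adjustment. SEs are the log2FC over the root of F. Calls used the thresholds given above. DESeq2, the tool the study used, was an alternative, run here in version 1.42.0. Others changed size factors, filter, samples fitted, rRNA and mitochondrial genes, call threshold, replicate block and single libraries. Leaving out 2 libraries together, or those with high brain cell markers, was chosen after seeing the data. Named were all 10 genes, *Park7*, of each pathway list the largest and smallest called changes with *Ifng*, *Irf1*, *Cd40* and *Cd86*, and the 10 and 5 genes most like the class II mean and *Ciita*. Some items of the lists are not reported here. Further list genes and the markers named were chosen after their values were seen. The genes and lists were chosen with earlier results of these data known. Each group is 4 or 5 mice, each its own library, and no libraries agreed within sampling noise (lowest chi-square per degree of freedom 6.5 within a group). Counting floors cover counting error only, since no molecular identifiers are named. Simulated data were used to check the scripts.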

Additional observations from a re-analysis of the deposited data

Results flagged for a closer look

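Each of the 10 genes was checked in each of the 4 groups for a library that stands far from its group (Dixon's ratio of gap to range at its 95% critical value). Of the 40 sets of libraries, 1 passed, where chance alone passes about 1 in 20. In KO mice after PBS, *Ciita* stood at 3.97 CPM in replicate 2, the lowest of 5, and the nearest other library held 5.35 CPM (gap over range 0.817). The log2FC of *Ciita*, KO against WT after PBS, was -0.33 with all libraries and -0.39 to -0.25 with each library left out in turn, and passed in none of these fits.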

How the results depend on the processing

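Of 995 values of single genes under the alternatives, 916 kept their direction and side of the threshold, 18 lost and 6 gained a call, and 55 changed sign, none of them called (signs are of values rounded to 2 decimals, which leaves out *H2-DMb1* for KO against WT after PBS, at 0.00 with alternatives from -0.11 to 0.11). For KO against WT after LPS, 3 genes passed, 0 at an adjusted p under 0.05, 1 (*Ciita*) without KO LPS replicate 5 and WT LPS replicate 1, and 1 to 4 with single libraries left out. The other counts stayed within 1.5 times.

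Deviations of same-numbered libraries correlated at -0.573 to 0.3 for KO against WT after LPS, -0.29 to 0.299 after PBS, -0.042 to 0.576 for LPS in WT and 0.027 to 0.544 for LPS in KO mice. In turn 1 of 5, 2 of 4, 2 of 4 and 3 of 5 libraries were most like their own number. The LPS pairs correlated on average (0.325 and 0.255), but not every pair was over 0.1, so the numbers were not taken as pairing the mice. With the replicate block, 4 genes passed (*H2-Ab1* at -0.52 added), and the other counts were 0, 7, 7 and 0 as without it.

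Signs turned as follows, and the cause was not tested. Without both named libraries: *H2-DMb1* 0.25 (KO against WT after LPS, and interaction), *Ciita* -0.05 (LPS in WT), *Cd74* -0.04 (interaction). KO against WT after PBS: *Rfx5* -0.01 (DESeq2 and its size factors), -0.02 (10 counts in every library, no filter, brain marker libraries out), -0.05 (block). *H2-DMa* -0.01 (DESeq2 and its size factors), -0.03 (both filters), -0.10 (brain marker libraries out). *Ctss* -0.05 (brain marker libraries out). LPS in WT: *Rfx5* -0.03 (10 counts, block), -0.01 (no filter, 2 groups). Interaction: *Ctss* -0.01 (block).

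With single libraries left out, the ranges that crossed 0 were, for KO against WT after LPS, *Cd74* -0.21 to 0.09, *H2-DMa* -0.04 to 0.31 and *H2-DMb1* -0.23 to 0.17. After PBS they were *Ctss* -0.08 to 0.28, *H2-DMa* -0.16 to 0.16, *H2-DMb1* -0.11 to 0.08, *H2-DMb2* -0.01 to 0.22 and *Rfx5* -0.03 to 0.07. For LPS they were *Rfx5* -0.02 to 0.12 and *Ciita* -0.05 to 0.24 in WT and *Ctss* -0.26 to 0.03 in KO mice. For the interaction they were *H2-DMb2* -0.10 to 0.60, *Ctss* -0.13 to 0.23, *H2-DMa* -0.05 to 0.30, *Cd74* -0.08 to 0.21 and *H2-DMb1* -0.23 to 0.17. The lowest counts in any library were 9 for *H2-DMb2* and 38 for *Ciita*. Whether depth limits their values was not tested.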
